A study of Mus musculus with 2 samples.

Results

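Plasmacytoid dendritic cells were identified by their transcripts in 2 single-cell RNA libraries from the femurs of mice. Barcodes were kept if they had 200 or more detected genes and no more than 15% mitochondrial transcripts. Among them, a barcode was counted as a plasmacytoid dendritic cell if it held at least 2 transcripts of Siglech, at least 1 of Irf8, at most 1 of Cd3d, Cd3e and Cd3g together, and under 4% of its transcripts from S100a8 and S100a9. A transcript here is a unique molecular identifier (UMI), a tag that counts each captured RNA molecule once. The rule selected 204 of 15842 kept barcodes, from 17057 in all.

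Plasmacytoid dendritic cells are bone-marrow-born cells of the innate immune system that sense the nucleic acids of viruses in their endosomes through the receptors TLR7 and TLR9. On activation they can release large amounts of type I interferon, and they also make chemokines and present antigen. The transcription factor E2-2, the product of Tcf4, holds their identity. The cells leave the marrow as they mature and carry Siglec-H and BST2 on their surface in the mouse.

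Mice with osteoporotic fractures had received intramedullary nails. The first library came from mice with Mg-TAGelMA nails, which the labels set apart from plain magnesium by a TA-GelMA component, and the second from mice with Mg nails; the libraries are called Mg-TAGelMA and Mg after them. GelMA is gelatin methacryloyl, a light-curable hydrogel, while TA is not written out in the labels. Each library held cells of the femoral marrow together with cells that adhered to the implant, and each was made with droplet-based 10x Chromium 3′ chemistry that primes on the poly(A) tail. The labels used here give no strain, sex, age, number of mice or pooling, and these 2 libraries were the samples analysed here.

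With 1 library per nail type there is no replicate, so no test of the nail types was possible. Every interval given is an exact 95% interval that covers counting error only, and the nail type and the library cannot be told apart. There were 79890998 UMIs over 7591 barcodes in Mg-TAGelMA, and 58261391 UMIs over 9466 barcodes in Mg. The median kept barcode had 6977 UMIs in Mg-TAGelMA and 3844 in Mg. The count tables were made with Cell Ranger 7.0.1 for Mg-TAGelMA and 5.0.0 for Mg. In all cell classes examined the ratio between the libraries moved with the length of a gene's introns, so each gene is read beside its intron length. A barcode sequence occurred in both libraries in 21 cases, and none of these was a member in both.

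Plasmacytoid dendritic cells made up 134 of 7523 kept barcodes in Mg-TAGelMA, or 1.78% (Clopper-Pearson interval 1.49 to 2.11). In Mg they made up 70 of 8319, or 0.841% (0.657 to 1.06). The share was 2.12-fold higher with the Mg-TAGelMA nail (1.57 to 2.87). The direction stayed when each barcode was thinned to 2000 UMIs, at 1.07% in Mg-TAGelMA and 0.653% in Mg, a ratio of 1.64. The denominator weighs on this share. Without the barcodes in which S100a8 and S100a9 made up 4% of the UMIs or more, which are mainly neutrophil transcripts, the share was 3.53% in Mg-TAGelMA and 1.02% in Mg, a ratio of 3.46. How many cells each library took from marrow and how many from the implant is not given, and its part in the shares was not tested.

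Members were large barcodes in both libraries. Their UMI totals ran from 986 to 72711 with a median of 12469.5 in Mg-TAGelMA, and from 2038 to 30364 with a median of 8751 in Mg. The median member had 3845.5 detected genes in Mg-TAGelMA and 2999 in Mg. Mitochondrial transcripts took a median of 3.09% of a member's UMIs in Mg-TAGelMA and 4.43% in Mg. The doublet caller Scrublet marked 297 barcodes in Mg-TAGelMA (3.95%) and 197 in Mg (2.37%). Among them were 8 members in Mg-TAGelMA and 0 in Mg, and all were retained.

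The counts that chose the cells are given as a description. Siglech, an endocytic receptor of the sialic-acid-binding lectin family (ENSMUSG00000051504, GRCm38 chromosome 7, 55768178 to 55778925), was at a median of 15 UMIs per member in Mg-TAGelMA and 8 in Mg, with a highest value of 38 in both. The median Irf8 count was 24 in Mg-TAGelMA members and 33 in Mg members. Most members lay well inside the threshold, since 117 in Mg-TAGelMA and 49 in Mg had at least 5 Siglech UMIs. Just inside it, 13 Mg-TAGelMA members had exactly 2 Siglech UMIs and a median of 6 of the other 14 plasmacytoid markers, and 14 Mg members had a median of 7.5. Just outside it, 69 Mg-TAGelMA barcodes had exactly 1 Siglech UMI and a median of 5 of those markers, and 35 Mg barcodes had a median of 3. The cap on S100a8 and S100a9 turned away 12 barcodes in Mg-TAGelMA and 1 in Mg that had 2 or more Siglech UMIs. Of the 12, 9 held at least 5 Siglech UMIs and 11 held at least 7 of the 14 markers.

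The label was checked against 16 markers of plasmacytoid dendritic cells, of which the rule used Siglech and Irf8. Levels are given as CPM, the UMIs of a gene scaled by all UMIs of the same cells. All 16 markers were higher in members than in the other kept barcodes of the same library, by 3.13- to 210-fold in Mg-TAGelMA and by 1.46- to 764-fold in Mg. The median member had 12 of the 14 markers outside the rule in Mg-TAGelMA and 10 in Mg. Bst2, the interferon-inducible tetherin by which these cells are often recognised, had 1541 CPM in Mg-TAGelMA members and 1757 CPM in Mg members, 28.4-fold above the other barcodes in Mg-TAGelMA and 36.4-fold in Mg. Tcf4 was detected in 132 of 134 Mg-TAGelMA members and 69 of 70 Mg members. Since the cells were picked on the same profiles, these ratios describe the selection.

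**Figure D1:**
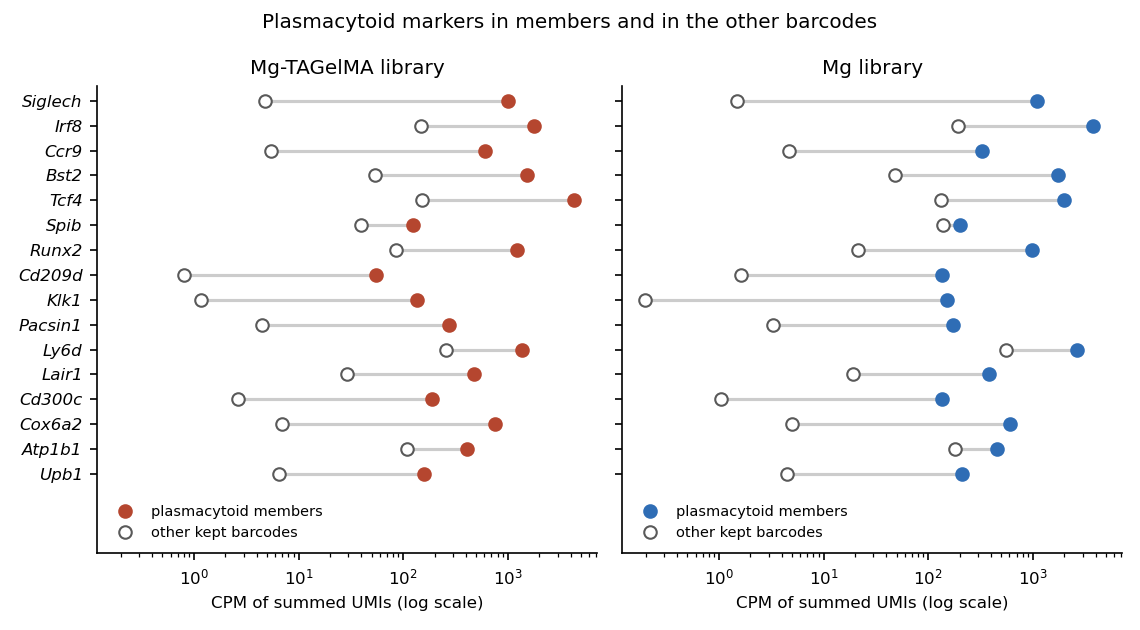
Levels of the 16 plasmacytoid markers, as CPM on a log axis, with Mg-TAGelMA at left and Mg at right. Filled symbols are plasmacytoid dendritic cells and open symbols all other kept barcodes. Each marker stands above the other barcodes, by 3.13- to 210-fold in Mg-TAGelMA and 1.46- to 764-fold in Mg. Summed, the 16 markers were 15.9-fold above them in Mg-TAGelMA and 11.4-fold in Mg.

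Markers of other lineages were present, and most of their lists stood below the other barcodes. The summed B lineage markers stood at 0.381 times the level of the other barcodes in Mg-TAGelMA and 0.230 times in Mg, the neutrophil list at 0.0854 times in Mg-TAGelMA and 0.0520 times in Mg, which still left it at 12448 CPM in Mg-TAGelMA members and 2833 CPM in Mg members, and the erythroid list at 0.106 times in Mg-TAGelMA and 0.0237 times in Mg. Conventional dendritic cell markers were above the other barcodes, 5.84-fold in Mg-TAGelMA and 13.2-fold in Mg. Within that list the cross-presenting-cell marker Xcr1 had 0 UMIs in Mg-TAGelMA members and 1 in Mg members, while Clec9a stood at 47.8 CPM in Mg-TAGelMA and 55.5 CPM in Mg. Cd4, a T cell coreceptor that mouse plasmacytoid dendritic cells also carry, was 21.1-fold above the other barcodes in Mg-TAGelMA and 11.9-fold in Mg, whereas Cd3d, Cd3e and Cd3g were capped by the rule. In Mg the macrophage and eosinophil lists stood at 1.54 and 1.68 times the other barcodes, and in Mg-TAGelMA at 0.207 and 0.181 times. One Mg member held 81.5% of the macrophage-marker UMIs of all Mg members and also decided Fabp4 and Vcam1 below. The eosinophil list had 10 UMIs in all Mg members, 70% of them in 1 member, and 66 of 70 members had none. Neutrophil markers took a median of 1.18% of a member's UMIs with the Mg-TAGelMA nail and 0.270% with the Mg nail, and the part of that difference in the comparisons between libraries was not tested.

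The genes that set members furthest apart from the rest of the marrow are a mixture of receptors, enzymes and a mitochondrial subunit. Of 1359 genes with at least 100 CPM in members of both libraries, 179 were 2-fold or more above the other barcodes in both and 26 were 10-fold or more. Siglech was asked for by the rule, so its place describes the selection. It led, with 1012 CPM in Mg-TAGelMA members and 1103 CPM in Mg members, 210-fold above the other barcodes in Mg-TAGelMA and 736-fold in Mg. Cox6a2, the muscle-type subunit of cytochrome c oxidase, had 764 CPM in Mg-TAGelMA and 600 CPM in Mg, 111-fold above them in Mg-TAGelMA and 121-fold in Mg. Klk1, a tissue kallikrein, had 135 CPM in Mg-TAGelMA and 150 CPM in Mg, 116-fold above them in Mg-TAGelMA and 764-fold in Mg. Ccr9, the receptor for the gut and thymus chemokine CCL25, had 605 CPM in Mg-TAGelMA and 330 CPM in Mg, 110-fold above them in Mg-TAGelMA and 70.6-fold in Mg. The rest of the leading 15 were Gm21762, the immune receptor Cd300c, the TLR7 and TLR9 adaptor Pacsin1, the cyclin Ccnd1, the leukaemia inhibitory factor receptor Lifr, Bst2, the pyrimidine-degrading enzyme Upb1, Cd7, the UDP-glucose receptor P2ry14, the phospholipid transfer protein Pltp and the kynurenine-pathway enzyme Kmo.

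The leading genes mostly stood at like levels in both libraries. Of the 15, Ccnd1 was the one past the size rule used for the nail types, which asks that the whole counting interval of the ratio lie beyond 2-fold and that the higher library reach 50 CPM. Ccnd1, the cyclin D1 that starts the cell cycle, had 198 CPM in Mg-TAGelMA members and 545 CPM in Mg members, 2.75-fold lower (2.38 to 3.19). It was also at 60.9 CPM in Mg-TAGelMA and 227 CPM in Mg conventional dendritic cells, a ratio of 0.268, so a low Ccnd1 was not shown to be particular to plasmacytoid cells.

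Single members spread widely around these sums. Siglech per 10000 UMIs ran from 0.275 to 40.4 with a median of 11.4 in Mg-TAGelMA members, and from 0.667 to 48.7 with a median of 10 in Mg members. Bst2 had a median of 17.9 in Mg-TAGelMA members and 20.2 in Mg members, and 2 Mg-TAGelMA and 6 Mg members had none. Those 2 genes overlapped almost wholly between the libraries. Tcf4 and Irf8 went opposite ways. The median Tcf4 was 45.5 per 10000 UMIs in Mg-TAGelMA members, with quartiles of 33.7 and 64.2, and 22.8 in Mg members, with quartiles of 15 and 31.0. The median Irf8 was 19.9 in Mg-TAGelMA members, with quartiles of 14.7 and 25, and 42.6 in Mg members, with quartiles of 32 and 52.5. For both genes the interquartile ranges of the libraries did not overlap, although the full ranges did. The share of all genes with such a gap was not counted. Irf8 was one of the genes that chose the members. Tcf4 has 318 kb of intron, a length at which the count tables themselves differ.

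**Figure D2:**
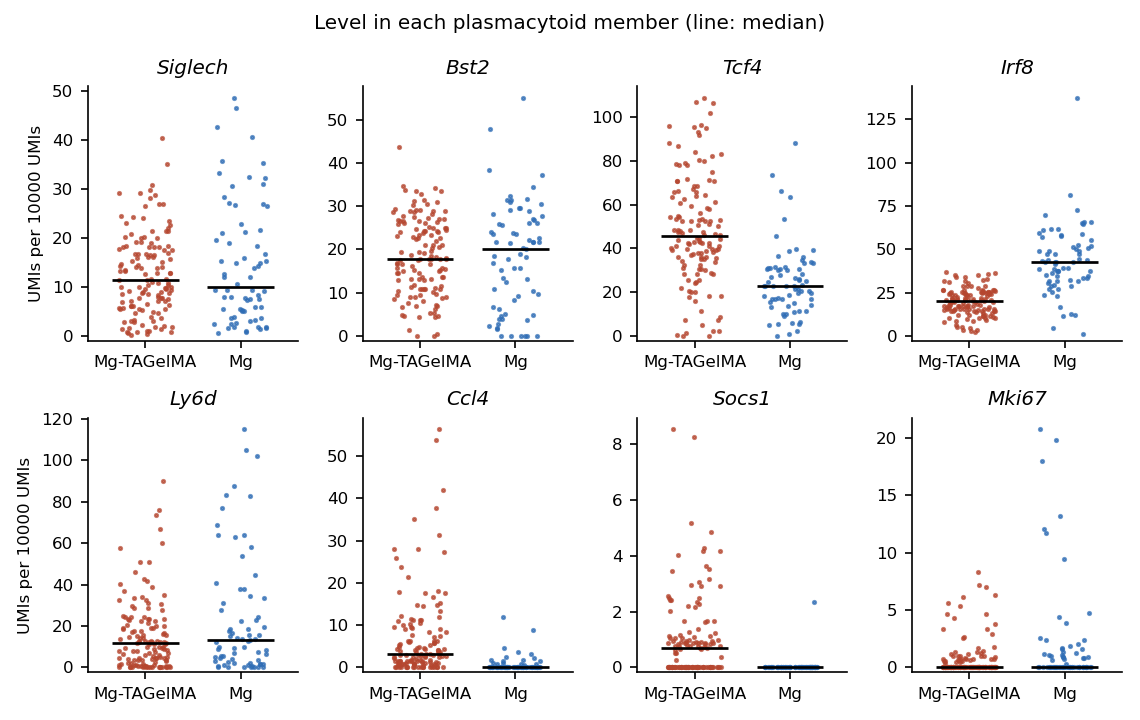
UMIs of 8 genes per 10000 UMIs of a barcode in each plasmacytoid dendritic cell, with 134 Mg-TAGelMA members at left and 70 Mg members at right, 1 point per cell and a line at the median. Siglech and Bst2 overlap almost wholly, Irf8 lies lower and Tcf4 higher in Mg-TAGelMA, and most Mg members sit at 0 for Ccl4 and Socs1.

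The members of each library differed among themselves along one axis that was followed with Ccr9, a receptor that mature marrow plasmacytoid dendritic cells carry and their immediate precursors lack in the mouse. The split was made after the profiles had been seen, on genes of the same cells, and is a description. A Ccr9 UMI was found in 107 of 134 Mg-TAGelMA members and 44 of 70 Mg members. In B lineage barcodes, which should lack it, the share was 3.68% in Mg-TAGelMA and 1.02% in Mg, with a median of 5517 UMIs in Mg-TAGelMA and 3670 UMIs in Mg per barcode, so that most member UMIs of Ccr9 lay above that background. Members without Ccr9 were no shallower than those with it. The median was 12015 UMIs with and 15196 without Ccr9 in Mg-TAGelMA, and 8085 with and 10503 without it in Mg.

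Members with a Ccr9 UMI had higher levels of genes known from mature plasmacytoid dendritic cells. Siglech stood at 1288 CPM with and 292 CPM without Ccr9 in Mg-TAGelMA, and at 1646 CPM with and 487 CPM without it in Mg. Klk1 stood at 185 CPM with and 5.51 CPM without Ccr9 in Mg-TAGelMA, and at 282 CPM with it and 0 UMIs without it in Mg. Tlr7, the endosomal receptor for single-stranded RNA, stood at 95.6 CPM with and 3.67 CPM without Ccr9 in Mg-TAGelMA, and at 64.9 CPM with and 3.20 CPM without it in Mg. Those without Ccr9 held 2 Tlr7 UMIs in all in Mg-TAGelMA and 1 in Mg. Irf7, the transcription factor that drives type I interferon genes, stood at 71.0 CPM with and 20.2 CPM without Ccr9 in Mg-TAGelMA, and at 87.5 CPM with and 9.61 CPM without it in Mg. Ly6a, Cd209d, Pacsin1, Lair1 and Cox6a2 were higher with Ccr9 in both libraries as well, and all Cd4 UMIs, 62 in Mg-TAGelMA and 27 in Mg, came from members with Ccr9.

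The proliferation list was higher in members without a Ccr9 UMI. The summed 25-gene proliferation list stood at 1622 CPM with and 4260 CPM without Ccr9 in Mg-TAGelMA, and at 1815 CPM with and 6400 CPM without it in Mg. A UMI of Mki67 or Top2a, which mark dividing cells, was found in 47 of 107 members with and 19 of 27 without Ccr9 in Mg-TAGelMA, and in 22 of 44 with and 18 of 26 without it in Mg. Flt3, the receptor of the growth factor that dendritic progenitors need, stood at 167 CPM with and 189 CPM without Ccr9 in Mg-TAGelMA, and at 169 CPM with and 285 CPM without it in Mg. Ccr2, a chemokine receptor of marrow exit that monocytes also carry, stood at 110 CPM with and 257 CPM without it in Mg-TAGelMA, and at 243 CPM with and 356 CPM without it in Mg. Ccr2 also stands in the monocyte marker list. That list summed to 2152 CPM with and 2910 CPM without Ccr9 in Mg-TAGelMA, and to 2179 CPM with and 1822 CPM without it in Mg. B lineage markers summed to 735 CPM with and 914 CPM without Ccr9 in Mg-TAGelMA, and to 440 CPM with and 1147 CPM without it in Mg, and the part of these markers in the contrast was not tested. Ly6d, a surface protein of lymphoid-primed plasmacytoid precursors, was not lower without Ccr9 to a like degree in both. It stood at 1623 CPM with and 758 CPM without Ccr9 in Mg-TAGelMA, and at 2710 CPM with and 2543 CPM without it in Mg.

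The contrast was also taken within members of clear Siglech, since a Ccr9 UMI and a high Siglech count occurred together. Among members with at least 5 Siglech UMIs, 102 had and 15 lacked a Ccr9 UMI in Mg-TAGelMA, and 37 had and 12 lacked one in Mg. In these, Bst2 stood at 1874 CPM with and 1112 CPM without Ccr9 in Mg-TAGelMA and at 2435 CPM with and 1538 CPM without it in Mg. Klk1 stood at 191 CPM with and 12.7 CPM without it in Mg-TAGelMA and at 330 CPM with it and 0 UMIs without it in Mg, and the proliferation list at 1655 CPM with and 2782 CPM without it in Mg-TAGelMA and at 1962 CPM with and 6986 CPM without it in Mg. The directions for Bst2, Klk1, Tlr7, Flt3 and the proliferation list therefore held among the members with clear Siglech, while Ly6d there stood at 1564 CPM with and 1492 CPM without Ccr9 in Mg-TAGelMA and at 2950 CPM with and 4628 CPM without it in Mg.

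**Figure D3:**
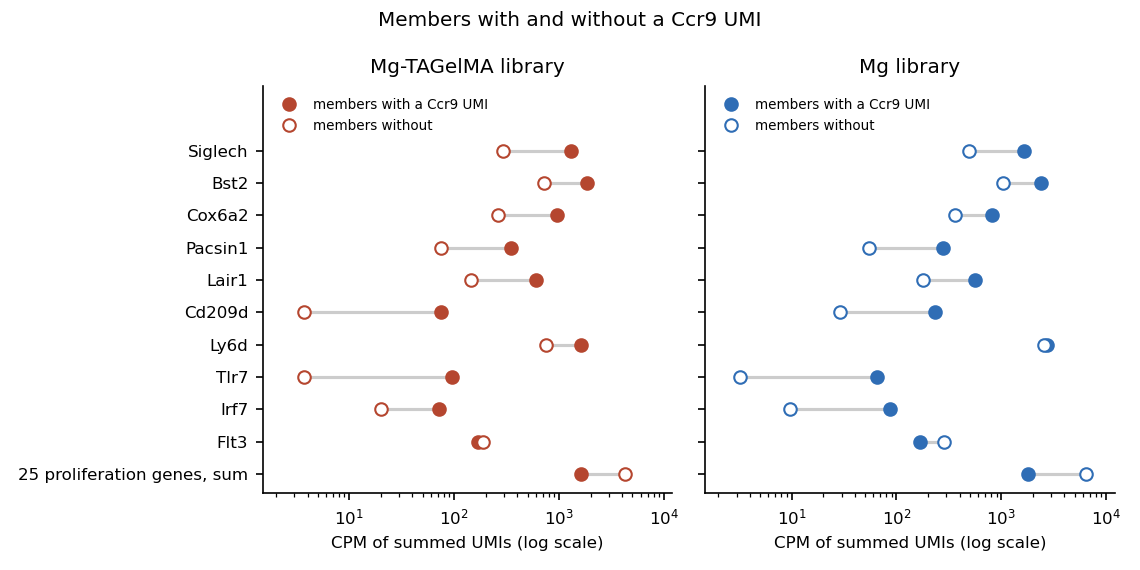
Levels of 10 genes and of the summed proliferation list, as CPM on a log axis, in plasmacytoid dendritic cells with a Ccr9 UMI (filled; 107 Mg-TAGelMA and 44 Mg members) and without one (open; 27 Mg-TAGelMA and 26 Mg members), with Mg-TAGelMA at left and Mg at right. Tlr7, Irf7, Siglech and Bst2 lie lower without Ccr9 and the proliferation list higher, in both libraries.

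Between the nail types, 4342 genes reached 50 CPM in plasmacytoid dendritic cells of 1 library or the other. Of these, 606 were past the size rule as higher with the Mg-TAGelMA nail (14.0%) and 56 as lower (1.29%). The higher genes were concentrated among those with long introns. The median log2 ratio was -0.34 over 477 genes with under 2 kb of intron, with 23 genes higher and 22 lower. It was 1.21 over 1126 genes with more than 64 kb of intron, with 445 higher (39.5%) and 4 lower. B lineage cells, conventional dendritic cells and monocytes gave 1.19, 1.15 and 1.03 for the same class of genes. A gene with long introns that was higher in Mg-TAGelMA can therefore not be told apart from the difference between the count tables. Limited to the 1106 genes whose introns sum to 8 kb or less, 37 were higher (3.35%) and 31 lower (2.80%), and these carry the comparison below.

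**Figure D4:**
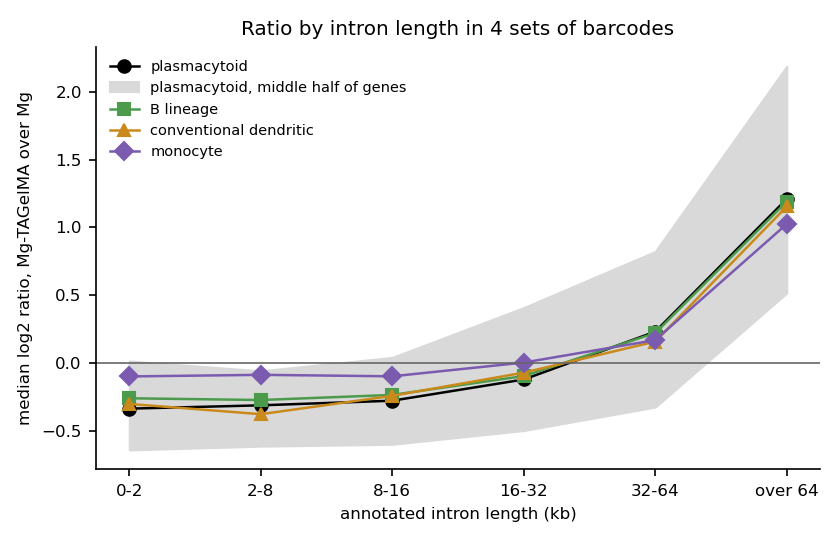
Median log2 ratio of CPM, Mg-TAGelMA over Mg, for genes binned by summed intron length in kb, in plasmacytoid dendritic cells and 3 other cell classes, with the grey band spanning the quartiles of the genes in the plasmacytoid cells. The 4 lines run together, from -0.34 under 2 kb to 1.21 over 64 kb in the plasmacytoid cells.

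The genes with the highest ratios over all were long ones. Kcnq5, a potassium channel gene, had 386 UMIs in Mg-TAGelMA members and 1 in Mg members, and Cacnb2, Acvr2a, Chst11, Cd86, Phlpp1 and Immp2l ran from 389 to 911 UMIs in Mg-TAGelMA members against 2 to 5 in Mg members. Lrmda had 413 UMIs in Mg-TAGelMA members and 0 in Mg members, which with a floor of 3 counts gives a ratio of 46.6 (15.8 to 227). Among the lowest ratios, Fabp4, a lipid-binding protein of macrophages, endothelium and fat, had 5 UMIs in Mg-TAGelMA and 133 in Mg, the Mg ones all in 1 member, and Vcam1 rested on 1 Mg member for 97.8% of its Mg UMIs. Without the top member of each, neither Fabp4 nor Vcam1 was past the rule. Lars2 had 148 UMIs in Mg-TAGelMA and 822 in Mg, 16.4-fold lower (13.7 to 19.7). It belongs with Gm42418 and AY036118, which overlap ribosomal RNA, to a trio that took 0.128% of member UMIs in Mg-TAGelMA and 5.52% in Mg.

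The chemokine genes Ccl4 and Ccl3 were higher among genes with short introns. Ccl4, the chemokine MIP-1β that attracts T cells, natural killer cells and monocytes (ENSMUSG00000018930, GRCm38 chromosome 11, 83662584 to 83664683, 1.44 kb of intron), had 1328 UMIs in Mg-TAGelMA members and 66 in Mg members. That is 675 CPM with the Mg-TAGelMA nail and 99.0 CPM with the Mg nail, 6.82-fold higher (5.32 to 8.87). The median member had 3.12 Ccl4 UMIs per 10000 in Mg-TAGelMA, where 19 of 134 had none, and 0 in Mg, where 53 of 70 had none. The highest member had 56.3 in Mg-TAGelMA and 12.0 in Mg. As counted, at unequal depth, Ccl4 UMIs were thus spread over most Mg-TAGelMA members, and no single member decided the difference. Ccl4 passed the size rule in every setting tried, with log2 ratios from 2.66 to 3.59.

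As a gauge of free RNA, cells with a Ccl4 UMI were counted at equal depth. Thinned to 2000 UMIs, 56.1% of Mg-TAGelMA members and 11.4% of Mg members held a Ccl4 UMI. B lineage barcodes thinned alike held one in 12.5% in Mg-TAGelMA and 2.54% in Mg. As counted, the shares were 85.8% of Mg-TAGelMA and 24.3% of Mg members, and 35.4% of Mg-TAGelMA and 5.51% of Mg B lineage barcodes. The member share lay above the B lineage share in both libraries, so Ccl4 in members was above that background in both. Monocytes thinned alike held a Ccl4 UMI in 24.6% in Mg-TAGelMA and 8.41% in Mg. The thinned Mg member share, which rested on 8 members, lay near that of Mg monocytes.

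The rise of Ccl4 was not confined to plasmacytoid dendritic cells. It stood at 185 CPM in Mg-TAGelMA and 12.9 CPM in Mg B lineage barcodes, 14.4-fold higher (12.8 to 16.3), at 782 CPM in Mg-TAGelMA and 215 CPM in Mg conventional dendritic cells, 3.64-fold higher (3 to 4.44), and at 225 CPM in Mg-TAGelMA and 84.1 CPM in Mg monocytes, 2.67-fold higher (2.27 to 3.16). Over all other kept barcodes it stood at 345 CPM in Mg-TAGelMA and 39.8 CPM in Mg. Whether the ratio differs between these cell classes was not tested. Ccl3, the neighbouring chemokine MIP-1α, had 176 UMIs in Mg-TAGelMA members and 4 in Mg members, 89.5 CPM in Mg-TAGelMA and 6 CPM in Mg, 14.9-fold higher (5.72 to 55.3). Thinned to 2000 UMIs, however, Ccl3 was found in 14.4% of Mg-TAGelMA members beside 7.57% of B lineage barcodes, and in 2.86% of Mg members beside 1.49%.

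Socs1, the suppressor of cytokine signalling that brakes JAK-STAT signals such as those of interferons (ENSMUSG00000038037, GRCm38 chromosome 16, 10782240 to 10785536, 0.389 kb of intron), had 179 UMIs in 74 of 134 Mg-TAGelMA members and 2 UMIs in 1 of 70 Mg members. That is 91.0 CPM with the Mg-TAGelMA nail and 3 CPM with the Mg nail, a ratio of 30.3 (8.27 to 252). Thinned to 2000 UMIs, 17.4% of Mg-TAGelMA members held a Socs1 UMI beside 6.19% of B lineage barcodes, and no Mg member held one beside 3.79% of B lineage barcodes. In Mg members the share was thus no higher than in B lineage barcodes. Socs1 stood at 23.9 CPM in Mg-TAGelMA and 15.3 CPM in Mg B lineage barcodes, a ratio of 1.56 (1.35 to 1.81), at 34.2 CPM in Mg-TAGelMA and 10.6 CPM in Mg conventional dendritic cells, a ratio of 3.23 (1.29 to 9.16), and at 18.9 CPM in Mg-TAGelMA and 7.42 CPM in Mg monocytes, a ratio of 2.55 (1.47 to 4.74). The intervals of these 3 ratios reach below 2-fold, and the plasmacytoid interval overlaps that of the conventional dendritic cells. With members thinned to 1000 UMIs each, the Socs1 call was lost.

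The other short-intron genes past the rule as higher included products of neutrophils and monocytes. Retnlg, a resistin-like protein of neutrophils, had 711 CPM in Mg-TAGelMA members and 88.5 CPM in Mg members, but it also had 771 CPM in Mg-TAGelMA and 73.0 CPM in Mg B lineage barcodes and 5619.6 CPM in Mg-TAGelMA and 629.6 CPM in all other Mg barcodes. In members it stood at 0.127 times the level of the other barcodes in Mg-TAGelMA and 0.141 times in Mg. Thinned, a Retnlg UMI was found in 80.3% of Mg-TAGelMA members and 79.4% of Mg-TAGelMA B lineage barcodes, so it was read as background and not as expression. Il1b and the neutrophil protease gene Ctsg, with 137 and 206 UMIs in Mg-TAGelMA members and 2 and 10 in Mg members, were in the same group. Il1b, whose log2 ratio was 4.54, had one of 4.96 without the top member of each library but was then too low for the rule, and its share after thinning, 9.85% of Mg-TAGelMA members, was below the 10.3% of B lineage barcodes. Mir142hg, host of the blood-cell microRNA miR-142, had 648 UMIs in Mg-TAGelMA and 7 in Mg, a ratio of 31.4 (15.1 to 78.3), and its ratio was 19.5 in B lineage barcodes, 25.2 in conventional dendritic cells and 33.0 in monocytes. Grasp had 118 UMIs in Mg-TAGelMA and 3 UMIs in Mg, and the metal-binding protein gene Mt1 had 146 UMIs in Mg-TAGelMA and 5 UMIs in Mg, 9.89-fold higher. Mt1 was also higher in B lineage barcodes, conventional dendritic cells and monocytes, by 4.14-, 7.38- and 2.46-fold.

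Histones of the replication-dependent class gave 5 of the 8 lowest ratios among short-intron genes. Hist1h3c had 18 UMIs in Mg-TAGelMA members and 50 in Mg members, 8.20-fold lower, and Hist1h4d had 59 in Mg-TAGelMA and 137 in Mg, 6.85-fold lower (5.02 to 9.47). Hist1h2ab, Hist2h2ac and Hist1h1a were 7.25-, 5.90- and 5.76-fold lower. Replication-dependent histone messages lack a poly(A) tail for the most part, so a poly(A)-primed library captures them incompletely. These genes were lower in Mg-TAGelMA in other cell classes as well. Hist1h3c was 12.5-fold lower in B lineage barcodes and 12.2-fold lower in monocytes, and Hist1h4d was 4.42-fold lower in B lineage barcodes, 14.8-fold lower in conventional dendritic cells and 3.46-fold lower in monocytes. Without the top member of each, Hist2h2ac and Hist1h1a were no longer past the rule, at log2 ratios of -2.43 and -2.46 beside -2.56 and -2.53 with it. Cd209a, a C-type lectin of dendritic cells, had 47 UMIs in 20 of 134 Mg-TAGelMA members and 105 UMIs in 23 of 70 Mg members, 6.59-fold lower (4.63 to 9.51). Its ratio was 0.645 in conventional dendritic cells, 0.170 in monocytes and 2.21 in B lineage barcodes.

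Transcription factors of the lineage are described next, with 16 of them measured in members. A few calls in this and later lists are read against the 14.0% of all genes that were higher and the 1.29% that were lower. Among genes with over 64 kb of intron the share higher was 39.5%. Of the 16 factors, 4 were past the rule as higher with the Mg-TAGelMA nail and 2 as lower, and the list's median log2 ratio was 0.55, where that of all 9356 genes with at least 10 CPM was -0.05. Over its 2 short-intron genes the median was -0.90, where that of all short-intron genes was -0.36. Tcf4 had 4331 CPM in Mg-TAGelMA members and 1973 CPM in Mg members, 2.20-fold higher (2.07 to 2.33). Runx1, Stat3 and Etv6, regulators of blood-cell development and cytokine signals, were 5.10-, 5.97- and 15.1-fold higher. Stat3 has 44.9 kb of intron and the other 3 over 200 kb, and Tcf4 was no longer past the rule when Lars2, Gm42418 and AY036118 were left out of the totals. The ratio of Tcf4 was 2.61 (1.98 to 3.48) in conventional dendritic cells, with 300.5 CPM in Mg-TAGelMA and 115 CPM in Mg, 1.39 in B lineage barcodes, with 315 CPM in Mg-TAGelMA and 227 CPM in Mg, and 1.13 in monocytes, with 152 CPM in Mg-TAGelMA and 135 CPM in Mg.

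Irf8 was lower with the Mg-TAGelMA nail. Genes with 8 to 16 kb of intron, the class that holds Irf8, had a median log2 ratio of -0.28 in members. Irf8, needed for dendritic cell development and one of the genes that chose the members, so that its ratio is a description (GRCm38 chromosome 8, 13.3 kb of intron), had 1775 CPM in Mg-TAGelMA members and 3768 CPM in Mg members, 2.12-fold lower (2.02 to 2.24). Its bound lay so close to 2-fold that the call was lost under TMM scaling, under median-ratio size factors and without the top member, with log2 ratios between -1.06 and -1.21 over the settings tried and a main value of -1.09. Irf8 was also at 344 CPM in Mg-TAGelMA and 1034 CPM in Mg conventional dendritic cells, a ratio of 0.333, at 330 CPM in Mg-TAGelMA and 481 CPM in Mg monocytes, a ratio of 0.685, and at 227 CPM in Mg-TAGelMA and 286 CPM in Mg B lineage barcodes, a ratio of 0.793. Bcl11a, a zinc-finger factor that acts upstream of E2-2, had 417 CPM in Mg-TAGelMA members and 965 CPM in Mg members, 2.31-fold lower (2.08 to 2.57). In B lineage barcodes its ratio was 0.462, in conventional dendritic cells 0.520 and in monocytes 0.627.

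The remaining factors were not past the rule. Spib, an Ets factor that works with E2-2, had 124 CPM in Mg-TAGelMA and 203 CPM in Mg. Runx2, which directs the exit of plasmacytoid dendritic cells from the marrow, had 1225 CPM in Mg-TAGelMA and 978 CPM in Mg. Ikzf1, the Ikaros factor, had 949 CPM in Mg-TAGelMA and 420 CPM in Mg, a ratio of 2.26 whose interval of 1.99 to 2.57 just reached below the bound. Zeb2 had 929 CPM in Mg-TAGelMA and 543 CPM in Mg, Cbfa2t3 210 CPM in Mg-TAGelMA and 368 CPM in Mg, Myb 79.8 CPM in Mg-TAGelMA and 165 CPM in Mg, and Mycl 34.6 CPM in Mg-TAGelMA and 73.5 CPM in Mg. Of 8 factors of conventional dendritic cells, Bcl6, with 17.1 kb of intron, was past the rule at 137 CPM in Mg-TAGelMA and 24.0 CPM in Mg. Id2, the inhibitor whose loss favours the plasmacytoid fate, had 40.7 CPM in Mg-TAGelMA and 72.0 CPM in Mg.

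**Figure D5:**
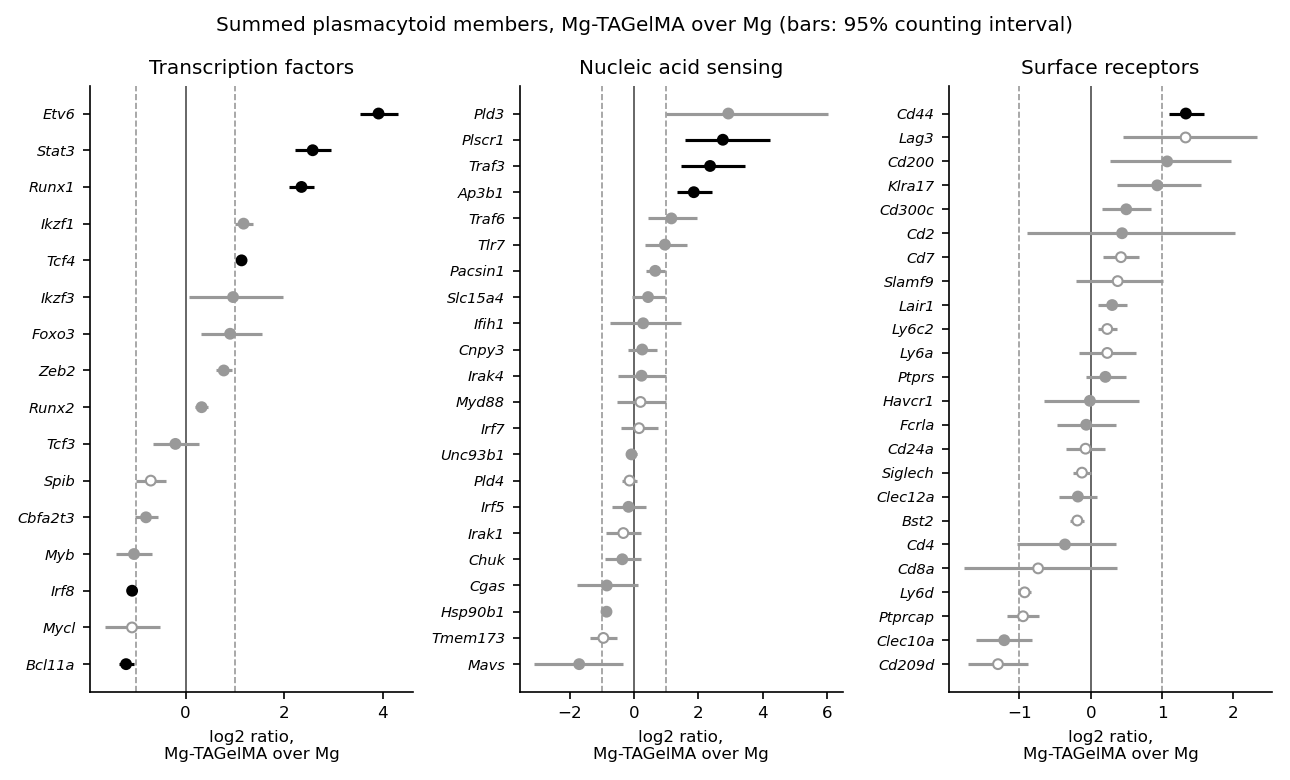
Log2 ratio of CPM, Mg-TAGelMA over Mg, with exact 95% counting intervals for members of the transcription factor, nucleic acid sensing and surface receptor lists in plasmacytoid dendritic cells. Black marks genes past the size rule and grey the others, open symbols have 8 kb of intron or less, and the dashed lines stand at log2 ratios of -1 and 1; Irf8 and Bcl11a lie to the left and Etv6 farthest to the right of the transcription factors.

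The machinery by which these cells sense nucleic acids was detected in both libraries. Of 22 genes measured, 3 were past the rule as higher and 0 as lower. Of all genes, 14.0% were higher at 50 CPM or more, and 7.81% with the minimum lowered to 10 CPM. The median log2 ratio was 0.22 over the list and -0.14 over its 5 short-intron genes. The 3 were Traf3, a signal adaptor, at 77.3 CPM in Mg-TAGelMA and 15 CPM in Mg, the vesicle-sorting subunit Ap3b1 at 185 CPM in Mg-TAGelMA and 51.0 CPM in Mg, and Plscr1, a scramblase that binds TLR9, at 61.0 CPM in Mg-TAGelMA and 9 CPM in Mg, with 93.4, 203 and 20.1 kb of intron. Tlr7 had 70.1 CPM in Mg-TAGelMA members and 36.0 CPM in Mg members, a ratio of 1.95 (1.26 to 3.14), and was found in 16.7% of Mg-TAGelMA and 8.57% of Mg members after thinning, beside 2.12% of Mg-TAGelMA B lineage barcodes. Tlr9, the receptor for unmethylated DNA, had 4 UMIs in Mg-TAGelMA and 5 in Mg, too few to compare. Unc93b1, the chaperone that brings both receptors to the endosome, had 500 CPM in Mg-TAGelMA and 527 CPM in Mg, a ratio of 0.949 (0.839 to 1.07). Irf7 had 56.9 CPM in Mg-TAGelMA and 51.0 CPM in Mg, and the endosomal nuclease gene Pld4 300.4 CPM in Mg-TAGelMA and 330 CPM in Mg.

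The interferons themselves were not detected. None of the 20 type I and type III interferon genes listed in the tables had a UMI in a member of either library. With 0 of 134 Mg-TAGelMA and 0 of 70 Mg members, a floor of 3 counts corresponds to 2.24% of members in Mg-TAGelMA and 4.29% in Mg. For 0 UMIs the same floor corresponds to 1.52 CPM in Mg-TAGelMA and 4.50 CPM in Mg. These limits are not exact intervals. Among all kept barcodes these genes had 22 UMIs in 18 barcodes of the Mg-TAGelMA library and 1 UMI in 1 barcode of the Mg library. Of the 4 cytokine genes measured, Ccl4 and Ccl3 were past the rule as above. Il12a, a subunit of interleukin-12, had 129 CPM in Mg-TAGelMA members and 78.0 CPM in Mg members, a ratio of 1.65 (1.22 to 2.28), and was found in 88 Mg-TAGelMA and 16 Mg members as counted and in 21.2% of Mg-TAGelMA and 11.4% of Mg members after thinning. Ccl5 had 22.4 CPM in Mg-TAGelMA and 43.5 CPM in Mg.

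Genes that respond to interferon gave no call in either direction. Of 24 measured, 0 were past the rule, with a median log2 ratio of 0.26. Stat2, part of the complex that carries the type I interferon signal to the nucleus, came nearest, at 213 CPM in Mg-TAGelMA and 84.0 CPM in Mg, a ratio of 2.53 (1.91 to 3.41). Isg15 had 18.3 CPM in Mg-TAGelMA and 15 CPM in Mg, Trim30a 268 CPM in Mg-TAGelMA and 273 CPM in Mg, and Ly6e 1289.6 CPM in Mg-TAGelMA and 1817 CPM in Mg. Ifitm3, a membrane protein that blocks virus entry, had 277 CPM in Mg-TAGelMA and 156 CPM in Mg, but 1 Mg member held 52.9% of the Mg UMIs.

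Surface receptors gave 1 call among 24 genes measured, with a median log2 ratio of 0.10. The hyaluronan receptor gene Cd44 had 590 CPM in Mg-TAGelMA and 234 CPM in Mg, 2.52-fold higher, with 83.7 kb of intron. With a Bst2 and a Tcf4 UMI also asked of members, the log2 ratio was 1.23 beside 1.33, and its interval reached below the bound. Lair1, a collagen-binding inhibitory receptor, had 473 CPM in Mg-TAGelMA and 384 CPM in Mg, and Cd7 had 332 CPM in Mg-TAGelMA and 248 CPM in Mg. Ly6d had 1384 CPM in Mg-TAGelMA members and 2632 CPM in Mg members, a ratio of 0.526 (0.495 to 0.559), just short of the rule. Cd209d, a C-type lectin found at 69.5 times the level of the other barcodes in Mg-TAGelMA and 83.1 times in Mg, had 55.4 CPM in Mg-TAGelMA and 137 CPM in Mg, a ratio of 0.406 (0.304 to 0.542). Lag3, an inhibitory receptor for MHC class II, had 45.2 CPM in Mg-TAGelMA and 18.0 CPM in Mg, on 89 UMIs in Mg-TAGelMA and 12 UMIs in Mg.

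Of 17 genes of migration and adhesion, 1 was past the rule, and the median log2 ratio was -0.19. Cmklr1, the chemerin receptor that guides plasmacytoid dendritic cells to inflamed tissue, had 149 UMIs in 76 of 134 Mg-TAGelMA members and 3 UMIs in 3 of 70 Mg members. The levels were 75.7 CPM with the Mg-TAGelMA nail and 4.50 CPM with the Mg nail, a ratio of 16.8 (5.65 to 82.5). The gene holds 34.7 kb of intron. Genes with 32 to 64 kb of intron had a median log2 ratio of 0.23 in members, and 9.72% of them were higher. The part of intron length in the Cmklr1 ratio was not tested. In the same libraries it had 0.963 CPM in Mg-TAGelMA and 0.485 CPM in Mg B lineage barcodes, a ratio of 1.98 (0.877 to 4.69), and 1.90 CPM in Mg-TAGelMA and 4.54 CPM in Mg conventional dendritic cells, on 1 UMI in Mg-TAGelMA and 3 in Mg. In monocytes it had 35 UMIs, or 7.05 CPM, in Mg-TAGelMA and 0 UMIs in Mg, a ratio of 4.75 with the floor of 3 counts. A higher Cmklr1 was therefore not particular to plasmacytoid cells. Ccr2 had 150 CPM in Mg-TAGelMA and 296 CPM in Mg, and Cxcr4, which holds cells in the marrow, 119 CPM in Mg-TAGelMA and 94.5 CPM in Mg, none past the rule.

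Antigen presentation genes had a median log2 ratio of -0.43 over 20 measured, with 1 higher and 1 lower. The lower one was H2-Ab1, the beta chain of an MHC class II molecule, at 251 CPM in Mg-TAGelMA members and 648 CPM in Mg members, 2.59-fold lower (2.27 to 2.95). Per 10000 UMIs the median member had 0.819 in Mg-TAGelMA and 1.27 in Mg, and 43 of 134 Mg-TAGelMA and 28 of 70 Mg members had none. The highest member had 28.6 in Mg-TAGelMA and 92.0 in Mg, and that Mg member held 23.1% of the Mg UMIs. The gene holds 9.16 kb of intron. The H2-Ab1 call was lost without the top member, with a log2 ratio of -1.07, and with at least 3 Siglech UMIs, with -0.61. H2-Aa had 377 CPM in Mg-TAGelMA and 833 CPM in Mg, and Cd74, the invariant chain, 1239 CPM in Mg-TAGelMA and 1445 CPM in Mg. Cd86, the costimulatory ligand and the higher call, had 389 UMIs in Mg-TAGelMA members and 2 in Mg members. It holds 58.6 kb of intron. In B lineage barcodes, conventional dendritic cells and monocytes it was also higher, by 26.2-, 14.9- and 13.8-fold. After thinning, 25% of Mg-TAGelMA members and 36.2% of Mg-TAGelMA B lineage barcodes held a Cd86 UMI. Whether B lineage barcodes can gauge free RNA of Cd86 was not tested.

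Growth and survival receptors gave 2 calls among 19 genes, both higher, beside 14.0% of all genes at 50 CPM or more. The median log2 ratio was 0.31. Kit, the stem cell factor receptor, had 81.3 CPM in Mg-TAGelMA members and 12.0 CPM in Mg members, 6.78-fold higher (3.36 to 16), and the cell-death gene Bcl2l11 had 379 CPM in Mg-TAGelMA and 27.0 CPM in Mg, 14-fold higher. They hold 72.9 and 28.5 kb of intron. Kit was also higher in B lineage barcodes, 2.70-fold, and Bcl2l11 in all 3 other classes, by 4.51- to 9.64-fold. Flt3 had 173 CPM in Mg-TAGelMA and 224 CPM in Mg, and Il7r, the interleukin-7 receptor, 375 CPM in Mg-TAGelMA and 260 CPM in Mg.

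Proliferation genes had a list median below that of all genes. Of 25 measured, 0 were past the rule as higher and 2 as lower, beside 14.0% and 1.29% of all genes at 50 CPM or more. The median log2 ratio was -0.61, where that of all genes with at least 10 CPM was -0.05. Over its 10 short-intron genes it was -0.59, where that of all short-intron genes was -0.36. Mki67 had 136 CPM in Mg-TAGelMA members and 347 CPM in Mg members, 2.55-fold lower (2.13 to 3.06). Mcm2, a subunit of the replication helicase, had 36.6 CPM in Mg-TAGelMA and 116 CPM in Mg, 3.16-fold lower (2.26 to 4.42). After thinning, 8.33% of Mg-TAGelMA and 22.9% of Mg members held a Mki67 UMI. The Mki67 call was lost without the top member, with a log2 ratio of -1.15. Asking for at least 3 Siglech UMIs, or for at least 7 other markers, also ended the Mki67 call, at -1.24 and -1.16. With a Bst2 and a Tcf4 UMI also asked of members it ended at -1.20. The Mcm2 difference was gone, at a log2 ratio of 0.01, among members without UMIs of a subset of the B lineage markers. Members without Ccr9, where the summed list was higher in both libraries, made up 27 of 134 Mg-TAGelMA and 26 of 70 Mg members. These counts were taken at unequal depth, and Ccr9 holds 95.6 kb of intron. After thinning, a Ccr9 UMI was found in 50% of Mg-TAGelMA and 44.3% of Mg members. The part of members without Ccr9 in the difference between the libraries was not tested. The list's median was -0.75 in B lineage barcodes and -2.25 in conventional dendritic cells, and 0.11 in monocytes.

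Genes of antigen receptor rearrangement, which plasmacytoid cells of lymphoid origin can carry, were present in members. Dntt, the polymerase that adds bases at rearranging genes, had 89.0 CPM in Mg-TAGelMA and 126 CPM in Mg, 8.25-fold above the other barcodes in Mg-TAGelMA and 3.06-fold in Mg, and was found in 22% of Mg-TAGelMA and 11.4% of Mg members after thinning. Rag1 had 16 UMIs in Mg-TAGelMA members and 13 in Mg members. Of the 13 genes measured, 2 were past the rule as higher, the light chain genes Igkc and Iglc1. Both stood below the other barcodes of the same library, and Iglc1 was not past the rule without the top member, at a log2 ratio of 2.12. Thinned, Igkc was found in 79.5% of Mg-TAGelMA members and 81.9% of Mg-TAGelMA monocytes, and in 41.4% of Mg members and 36.3% of Mg monocytes.

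Stress, metal and metabolic genes gave few calls. Of 20 immediate early genes, Jund was 2.30-fold higher, at 858 CPM in Mg-TAGelMA and 374 CPM in Mg, and Ier3 5.28-fold higher, at 95.1 CPM in Mg-TAGelMA and 18.0 CPM in Mg, while Egr1 was 3.12-fold lower, at 26.4 CPM in Mg-TAGelMA and 82.5 CPM in Mg. Jund, at 1610 CPM in Mg-TAGelMA and 882 CPM in Mg B lineage barcodes, lost its call with the doublets left out and without Lars2, Gm42418 and AY036118 in the totals, at log2 ratios of 1.13 and 1.12. Egr1 was not past the rule without the top member, at -1.41 beside -1.64. Its call also ended with at least 3 Siglech UMIs, at -1.60, and with at least 7 other markers, at -0.90. With totals taken over short-intron genes it ended at -1.25. Of 11 genes of magnesium transport, Cnnm2 and Slc41a2 were higher, Slc41a2 with 475 UMIs in Mg-TAGelMA members and 33 in Mg members, 241 CPM in Mg-TAGelMA and 49.5 CPM in Mg. Both genes hold more than 64 kb of intron, where 39.5% of all genes were higher, beside 14.0% over every length. Cnnm2 was not past the rule without the top member, at a log2 ratio of 3.99, and Slc41a2 was 6.18-fold higher in B lineage barcodes too. Slc41a2, a magnesium transporter, stood 25.6-fold above the other barcodes in Mg-TAGelMA and 34.2-fold in Mg. It was thus enriched in members of both libraries, although its level in Mg members was under 50 CPM. Of 14 metallothionein and zinc transport genes 2 were higher, Mt1 and Slc39a14, and of 16 antioxidant genes 1, the stress-response factor gene Nfe2l2, at 119 CPM in Mg-TAGelMA and 33.0 CPM in Mg, with 37.4 kb of intron for Slc39a14 and 25.3 kb for Nfe2l2. None of 15 NF-kB target genes, 17 genes of glycolysis and hypoxia or 23 of the secretory pathway was past the rule in either direction, with median log2 ratios of 1.08, 0.20 and -0.18.

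Settings that left few UMIs ended many of these calls. With members thinned to 1000 UMIs each, 36 of the 52 named calls between the nail types ended, among them Socs1, Ccl3, Tcf4, Irf8, Cmklr1, H2-Ab1, Kit, Mki67, Cd86, Cd209a and the 5 histones. With the 38 Mg-TAGelMA and 26 Mg members that held no UMI of that subset of B lineage markers, 21 ended, among them Tcf4, Traf3, Ap3b1, Plscr1, Cd44, Cmklr1, Kit, Mki67, Mcm2, Mt1, Grasp, Ier3 and Slc41a2, while Socs1, Ccl3, Irf8, Bcl11a, H2-Ab1 and Cd209a stayed past the rule. Ccl4, Mir142hg, Retnlg, Lars2, Bcl11a, Runx1, Stat3, Etv6 and Bcl2l11 stayed past the rule in both.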

How the data were processed

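Raw UMI counts per gene and barcode were deposited for each of 2 libraries as filtered matrices with gene tables and barcode lists; per the file headers the authors made them with Cell Ranger 7.0.1 for Mg-TAGelMA and 5.0.0 for Mg. STAR and mm10 are named in the submitters' processing notes, and whether intronic reads were counted is not given in the sources used here. From these counts, barcodes were filtered and members selected as stated in the report, with no integration or clustering. Counts were summed over members per library and divided by the members' total UMIs to give CPM. The ratio of Mg-TAGelMA to Mg carries an exact interval from the conditional binomial, and shares have Clopper-Pearson intervals; all cover counting error only. With 1 library per group no test, p-value or count of changed genes across replicates was made. A gene counted as higher or lower if its interval lay wholly beyond 2-fold and it reached 50 CPM in the higher library, and a count of 0 was set to a floor of 3 counts for a bound.

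Genes named are the label markers, the 15 leading genes, the 8 highest and 8 lowest ratios past the rule over all genes and over those whose introns sum to 8 kb or less, and up to 6 members past the rule of each of 18 lists, with levels of the main function genes. Immunoglobulin, T cell receptor, haemoglobin, mitochondrial, ribosomal and sex-linked dosage genes and unnamed gene models were left out of the ranked names. The members and lists were chosen with earlier results of these data known. List medians use members with at least 10 CPM in a library. Summed intron lengths came from GENCODE vM21 on GRCm38, which matched 32235 of 32285 genes. Comparison cells lacked Siglech and had the same caps. B lineage barcodes held at least 2 Cd79a and 1 Cd79b UMIs, conventional dendritic cells at least 3 H2-Aa, 10 Cd74 and 2 UMIs of 7 dendritic genes, and monocytes at least 1 Csf1r and 2 Ms4a6c UMIs. They numbered 1764 and 3541, 43 and 61, and 343 and 227 in the Mg-TAGelMA and Mg libraries. Doublets were called with Scrublet in scanpy 1.11.5 and kept. Python 3.11.15, numpy 2.4.6, scipy 1.17.1, pandas 2.3.3 and R 4.3.3 with edgeR 4.0.16 and DESeq2 1.42.0 (scaling factors only) were used, and the ratio procedure was tested on simulated data. Symbols Sting1, Mb21d1, Mx1 and Mx2 were not analysed here, and some named genes and their results are not reported here. Alternatives changed the member rule, depth, scaling, total, thresholds and doublets one at a time, except that the short-intron setting changed the genes and their total together.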

Additional observations from a re-analysis of the deposited data

How the results depend on the processing

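No paired analysis was possible because each nail type has 1 library. The share ratio of 2.12 ran from 1.64 to 2.39 over the other settings and moved to 3.46 without barcodes of 4% or more S100a8 and S100a9 UMIs. The 606 genes higher with Mg-TAGelMA became 325 with a 3-fold bound, 314 without members that held a B lineage marker UMI, 136 with members thinned to 1000 UMIs, and 63 of 1733 when short-intron genes alone were tested on their own total, which changes the genes and the scale together. The 56 lower genes became 119 at a 10 CPM minimum, 37 at 100 CPM, 215 with a 1.5-fold bound, 16 with a 3-fold bound, 15 thinned and 24 on the short-intron total. The 30 list members past the rule became 8 when lists were limited to genes with at most 8 kb of intron. These alternatives were chosen after seeing the data: leaving out the top member of each gene, which gave 36 lower genes, and asking for at least 7 of the 14 other markers. Reversed log2 ratios were Hist1h1a at 0.33 and Mcm2 at 0.0075 without members that held a B lineage marker UMI; the cause was not tested. Of the single-gene values under alternatives 528 kept within counting error of the main value, 97 moved and 2 reversed. Of 52 named calls, 36 were lost when thinned, 21 without members with a B lineage marker UMI, and 11 without each gene's top member. With totals taken over short-intron genes the log2 ratios shifted by 0.39, and other scalings moved them by at most 0.08.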
